A study of Homo sapiens with 8 samples.

Results

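Plasma membrane amino acid transporters carry aspartate, glutamate, glutamine, large neutral and cationic amino acids across the cell surface. The 9 genes described here, SLC1A3, SLC1A4, SLC1A5, SLC3A2, SLC7A1, SLC7A5, SLC7A6, SLC38A1 and SLC38A2, were taken from a list of such carriers and matched by symbol to the Ensembl identifiers of the count files. All 9 were found among 58051 genes, and 7 of them were among the 7550 genes with enough reads to be tested. RNA was sequenced in 8 samples of MDA231 (MDA-MB-231) cells, a mesenchymal breast cancer line, to compare cells with intact complex II of the respiratory chain with cells that lack its SDHB subunit or both SDHB and most of SDHA. The parental group (2 samples) held unmodified MDA231 cells. The SDHB KO group (3 samples) held cells made with a TALEN nuclease aimed at exon 1 of SDHB and selected with hygromycin. The SDHB knockout SDHA knockdown group (3 samples), called SDHA knockdown cells here, held SDHB KO cells that also carried an shRNA against SDHA and had been selected with puromycin, so that it shares the SDHB knockout. Cells with an empty vector were not analysed here. Whether the replicates of a group came from separate cultures or clones is not given in the sources used here, and p-values therefore measure the spread between these samples only. Subline differences and the loss of SDHB or SDHA cannot be told apart. All cells were untreated and were harvested before full confluency in complete medium.

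SLC7A5 (LAT1) and SLC7A6 are light chains of amino acid carriers. A disulfide bond joins them to the heavy chain SLC3A2 (CD98hc), which brings them to the cell surface. SLC7A5 exchanges intracellular glutamine for leucine and other essential amino acids, and the glutamine is supplied by SLC1A5 (ASCT2) and by the sodium-coupled carriers SLC38A1 and SLC38A2. SLC1A3 (GLAST) is a high-affinity carrier of glutamate and aspartate, SLC1A4 (ASCT1) exchanges small neutral amino acids, and SLC7A1 (CAT1) takes up arginine and lysine. Aspartate made from glutamine in mitochondria feeds nucleotide synthesis, and proliferating cells with a defective respiratory chain are known to depend on aspartate. Several of these genes are targets of ATF4, a transcription factor of the amino acid response, and SLC7A5 and SLC1A5 are also known targets of MYC.

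The 250 bases before a start site are given for SLC7A5 and SLC1A5. SLC7A5 is the transporter that differed between SDHB KO and parental cells in the test, and SLC1A5 the one with the most reads. Both runs are read 5′ to 3′ in the direction of the gene from the promoter table of RefSeq (GRCh38.p14). Capitals mark the E-box CACGTG, the motif bound by MYC and related factors. SLC7A5 lies at chr16:87869508-87869757 (minus strand) and SLC1A5 at chr19:46788595-46788844 (minus strand).
SLC7A5: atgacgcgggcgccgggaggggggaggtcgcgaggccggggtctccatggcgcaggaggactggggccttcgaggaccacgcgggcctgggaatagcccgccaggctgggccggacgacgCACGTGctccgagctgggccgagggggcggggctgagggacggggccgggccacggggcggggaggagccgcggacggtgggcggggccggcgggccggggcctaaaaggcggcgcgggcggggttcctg
SLC1A5: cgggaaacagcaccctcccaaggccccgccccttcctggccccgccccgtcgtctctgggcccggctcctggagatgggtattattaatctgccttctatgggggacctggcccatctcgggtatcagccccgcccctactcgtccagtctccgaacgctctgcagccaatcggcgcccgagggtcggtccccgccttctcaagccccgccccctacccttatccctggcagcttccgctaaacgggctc
The SLC7A5 run had a GC content of 79.6% and an E-box 130 bases before the start site. The SLC1A5 run had a GC content of 66.8% and no E-box, while another of the 3 start sites listed for SLC1A5 had one at position -50. Both strands of all 17 windows of the 9 genes, each from 250 bases before to 50 bases after a start site, were searched for CACGTG and for the core of the C/EBP-ATF response element, TGATGNAA, where N is any base. The E-box was found in 2 of the 17 windows, against 7.26% of all 35116 windows in the table. The C/EBP-ATF core was found in 6 windows of 6 genes, at position -220 for SLC1A3, -7 for SLC1A4, -97 for SLC1A5, 37 for SLC3A2, 7 for SLC7A1 and -4 for SLC38A1, against 3.62% of all windows. Neither of the printed runs held the C/EBP-ATF core. No window of these genes held both motifs. A match describes the letters only and does not show binding.

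Libraries were made with the QuantSeq kit, which reads the 3′ ends of polyadenylated RNA. Between 773042 and 1427141 reads per sample were counted on genes, with a median of 853763.5, and 3 counts of a gene equal at most 3.88 CPM (counts relative to the reads on genes of a sample). Levels of single genes are given as CPM scaled by the TMM method. The deepest sample, SDHA knockdown replicate 2, also stood apart from its replicates, with chi-squared statistics per degree of freedom of 9.22 and 9.95 against 2.03 to 4.97 for the other pairs of replicates. Multimapping reads made up 14.45% to 16.07% of each SDHB KO file, against 9.72% to 12.28% in the other files, and their part in the results was not tested. All 7 markers of the mesenchymal line were tested, with a summed level of 6773 to 7470 CPM in parental, 5956 to 6557 CPM in SDHB KO and 6437 to 6949 CPM in SDHA knockdown cells, and 1 of them was called, MSN between SDHA knockdown and parental cells (log2 fold change 0.84, SE 0.21, adjusted p = 0.0905). Of 7 luminal breast markers 1 was tested and 2, ESR1 and PGR, were at 0 in every sample, with a summed level of 13.3 to 25.6 CPM. All 4 immune markers and 3 of 5 fibroblast markers were at 0 in every sample, and the fibroblast list summed to 1.21 to 8.1 CPM with no gene tested. SDHA counts were 64 and 69 in parental, 108, 121 and 140 in SDHB KO, and 7, 17 and 16 in SDHA knockdown cells. SDHA fell by 3.46 on the log2 scale from SDHB KO to SDHA knockdown cells (edgeR quasi-likelihood test, Benjamini-Hochberg adjusted p = 1.16e-07), and its estimate between SDHB KO and parental cells was 0.80 (adjusted p = 0.103). SDHB counts were 4 and 3 in parental, 0, 3 and 1 in SDHB KO, and 0, 2 and 1 in SDHA knockdown cells. These 3′ tags lie outside the targeted exon and do not check the knockout.

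One of the 7 tested transporters, SLC7A5, passed the threshold (adjusted p below 0.1) between SDHB KO and parental cells, and it was higher in SDHB KO cells. No transporter passed it in the other comparisons. Over all 7550 genes, 5.54% were called between SDHB KO and parental cells (3.14% higher and 2.4% lower in SDHB KO). Between SDHA knockdown and SDHB KO cells 1.51% were called (0.318% higher and 1.19% lower), and between SDHA knockdown and parental cells 0.914% (0.225% higher and 0.689% lower). The median log2 fold change of the 7 transporters was -0.35 between SDHB KO and parental cells, against 0.00 for all genes tested, and the estimates of the other 6 lay below 0. From SDHB KO to SDHA knockdown cells the median was 0.05, with 4 estimates above 0 and 3 below, against 0.01 for all genes. Between SDHA knockdown and parental cells it was -0.14, with 2 estimates above 0 and 5 below, against 0.02 for all genes. The comparisons share samples and are not independent of each other. RNA was taken from bulk cultures, so that fewer cells of a kind and less RNA per cell cannot be told apart.

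**Figure D1:**
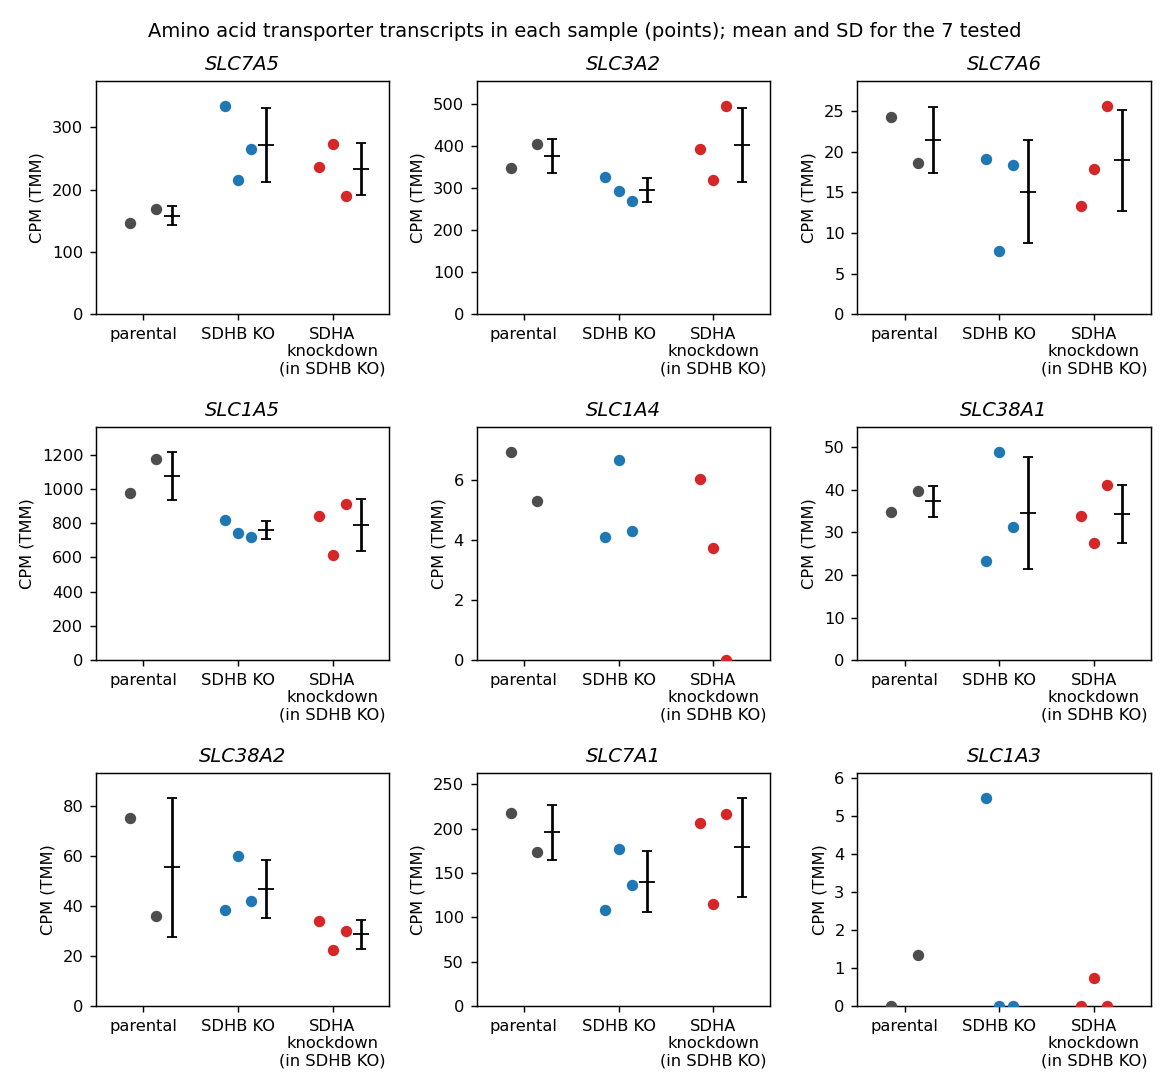
TMM-scaled CPM of each of the 9 transporters (vertical axes, 1 panel per gene) in the 8 samples by group; points are samples, and the bar beside them is the group mean with SD for the 7 tested genes. SLC7A5 lies between 215 and 334 CPM in SDHB KO cells against 147 and 169 CPM in parental cells, while SLC1A4 and SLC1A3 stay below 7 CPM.

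SLC7A5 (ENSG00000103257, chr16:87830023-87869507, minus strand) was higher in SDHB KO cells than in parental cells. Its read counts were 127 and 127 in parental, 244, 193 and 246 in SDHB KO, and 195, 365 and 170 in SDHA knockdown cells. Scaled for depth, these are 147 and 169 CPM in parental cells, 334, 215 and 265 CPM in SDHB KO cells, and 235, 272 and 189 CPM in SDHA knockdown cells. Every sample with the SDHB knockout was above both parental samples, whereas both knockout groups overlapped each other. The group means were 158 ± 15.3 CPM (SD, n = 2), 271 ± 59.9 CPM (SD, n = 3) and 232 ± 41.5 CPM (SD, n = 3) in that order. SDHB KO cells had 1.72-fold the parental level, a log2 fold change of 0.78 (SE 0.25, 95% interval 0.27 to 1.29, adjusted p = 0.0923). SDHA knockdown cells differed from parental cells by 0.56 (SE 0.24, 95% interval 0.06 to 1.07), which was below an unadjusted p of 0.05 but did not pass the adjusted threshold (adjusted p = 0.343). From SDHB KO to SDHA knockdown cells the estimate was -0.22 (SE 0.21, 95% interval -0.65 to 0.22, adjusted p = 0.719), so that the order of these neighbouring groups was within their spread. Separation of all samples of both groups, as for SLC7A5, held for 37.9% of all genes between SDHB KO and parental cells and for 30.7% between SDHA knockdown and parental cells.

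The call for SLC7A5 lay close to the threshold. Over 16 alternative fits its log2 fold change between SDHB KO and parental cells ranged from 0.61 to 0.93 and its adjusted p from 0.0195 to 0.587, and it was called in 8 of them. DESeq2 gave 0.79 (adjusted p = 0.0464). The call was lost with a correction for the GC content of the 3′ end (0.64, adjusted p = 0.118). It was also lost without parental replicate 1 (0.68, adjusted p = 0.587) and without parental replicate 2 (0.88, adjusted p = 0.313), fits in which the lone parental sample is assumed to vary like the other groups. Leaving out SDHB KO replicate 1 (0.61, adjusted p = 0.278), SDHB KO replicate 3 (0.81, adjusted p = 0.173) or SDHA knockdown replicate 1 (0.78, adjusted p = 0.110) lost it as well. Without SDHA knockdown replicate 2, the sample that stood apart, SLC7A5 remained past the threshold at 0.80 (adjusted p = 0.0195). The estimate was above 0 in every fit. Reads of the pseudogenes SLC7A5P1 and SLC7A5P2 were at 0 in all samples. Multimapping reads were not counted, so that these counts cannot show reads that the pseudogenes share with SLC7A5.

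**Figure D2:**
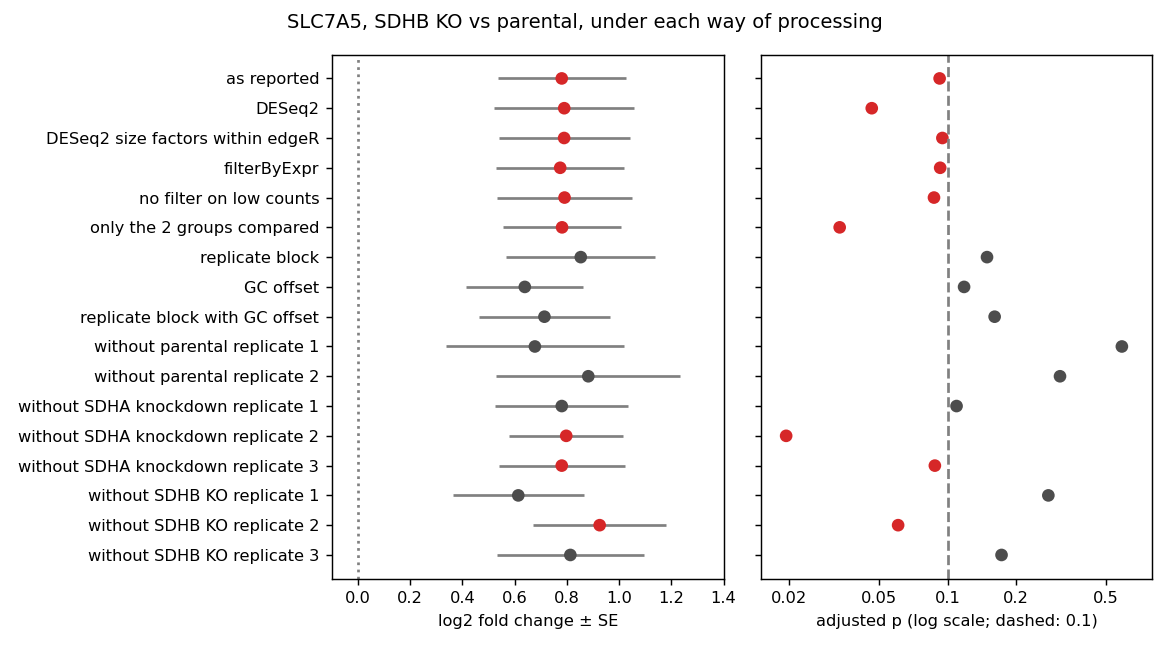
SLC7A5 in SDHB KO against parental cells under each way of processing (lines): log2 fold change with SE on the left, adjusted p on a log axis on the right with the threshold of 0.1 dashed; red points are past it. The estimates stay between 0.61 and 0.93, and the adjusted p is below the threshold in 8 of the 16 alternatives.

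SLC3A2 (ENSG00000168003, chr11:62856004-62888880, plus strand), the heavy chain that SLC7A5 needs, was not called in any comparison. Its level was 348 and 406 CPM in parental cells, 327, 292 and 271 CPM in SDHB KO cells, and 393, 319 and 496 CPM in SDHA knockdown cells. The SDHB KO samples lay below both parental samples, as for 18.6% of all genes, while SDHA knockdown cells overlapped both other groups. Between SDHB KO and parental cells the log2 fold change was -0.35 (SE 0.22, adjusted p = 0.443), opposite in sign to that of SLC7A5. From SDHB KO to SDHA knockdown cells it was 0.44 (SE 0.20, 95% interval 0.03 to 0.85, adjusted p = 0.384), and this comparison passed the threshold only without SDHA knockdown replicate 2 (0.57, adjusted p = 0.0989). Between SDHA knockdown and parental cells it was 0.09 (SE 0.22, 95% interval -0.37 to 0.55).

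The share of SLC7A5 in the reads of SLC7A5 and SLC3A2 together sets the light chain against its heavy chain within each library and does not depend on depth scaling. It was computed after the values of both genes had been seen and is given without a test. In parental cells the share was 29.7% (95% Wilson interval 25.5 to 34.2) and 29.3% (25.2 to 33.8). In SDHB KO cells it was 50.5% (46.1 to 55.0), 42.3% (37.9 to 46.9) and 49.5% (45.1 to 53.9). In SDHA knockdown cells it was 37.4% (33.4 to 41.7), 46.0% (42.6 to 49.5) and 27.6% (24.3 to 31.3). All SDHB KO samples lay above both parental samples. This was fixed by the values above, as every SDHB KO sample had more SLC7A5 and less SLC3A2 than both parental samples. The share adds no evidence beyond those values. SDHA knockdown replicate 3 lay below the parental samples, and replicate 1 lay between the parental and the SDHB KO samples. Only SDHA knockdown replicate 2, the sample that stood apart from its replicates, reached the SDHB KO range. The means were 29.5 ± 0.24% (SD, n = 2), 47.5 ± 4.47% (SD, n = 3) and 37.0 ± 9.20% (SD, n = 3). The shares rest on 428 to 793 reads of both genes per sample, and the intervals cover counting error only.

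**Figure D3:**
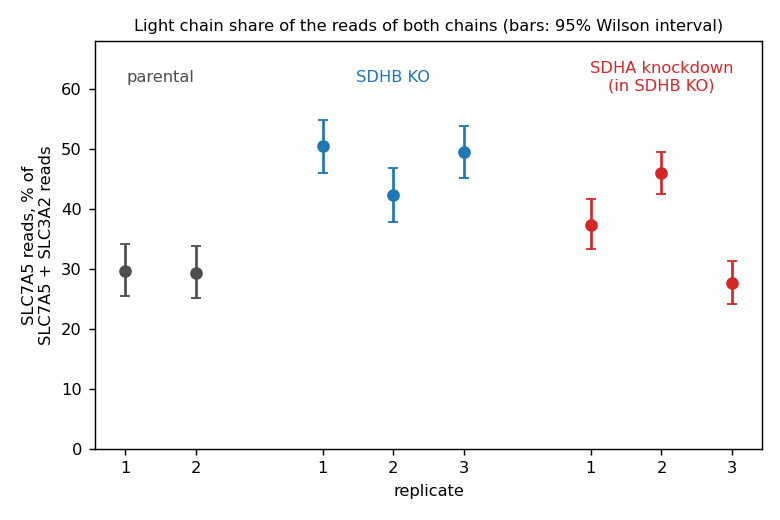
SLC7A5 reads as a percentage of SLC7A5 plus SLC3A2 reads (vertical axis) in each of the 8 samples, by group; bars are 95% Wilson intervals for counting error. Parental samples lie at 29.3% and 29.7%, SDHB KO samples at 42.3% to 50.5% and SDHA knockdown samples at 27.6% to 46.0%.

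SLC7A6 (ENSG00000103064, chr16:68264516-68301823, plus strand), the other light chain of SLC3A2 measured, had few reads and was not called. Counts were 21 and 14 in parental, 14, 7 and 17 in SDHB KO, and 11, 24 and 23 in SDHA knockdown cells, and all groups overlapped. The log2 fold changes were -0.52 (SE 0.48) between SDHB KO and parental cells, 0.34 (SE 0.43) from SDHB KO to SDHA knockdown cells, and -0.18 (SE 0.47) between SDHA knockdown and parental cells. The 95% interval of the first ran from -1.52 to 0.48. SLC7A6 overlaps SLC7A6OS on the opposite strand, which had 19 to 50 reads, and the strand setting of the counting is not given in the sources used here, so that reads of this pair are uncertain.

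SLC1A5 (ENSG00000105281, chr19:46774883-46788594, minus strand), the main glutamine exchanger of many cancer cells, had the most reads of the 9 genes, from 598 to 885 per sample. Its level was 974 and 1175 CPM in parental cells, 818, 745 and 717 CPM in SDHB KO cells, and 842, 616 and 909 CPM in SDHA knockdown cells. All 6 samples with the SDHB knockout lay below both parental samples. Of all genes, 18.6% had all SDHB KO samples below both parental samples, and 15.5% had all SDHA knockdown samples below them. The share of genes with both was not computed. The means of SLC1A5 were 1074 ± 142 CPM (SD, n = 2), 759.9 ± 52.5 CPM (SD, n = 3) and 789 ± 154 CPM (SD, n = 3). Between SDHB KO and parental cells the log2 fold change was -0.50 (SE 0.21, 95% interval -0.93 to -0.07), which was below an unadjusted p of 0.05 but did not pass the adjusted threshold (adjusted p = 0.205). Over the 16 alternatives it ranged from -0.66 to -0.36 (adjusted p from 0.0809 to 0.648), and it passed the threshold in 2 of them, with the GC correction (-0.63, adjusted p = 0.0809) and without SDHA knockdown replicate 2 (-0.48, adjusted p = 0.0873). Between SDHA knockdown and parental cells it was -0.45 (SE 0.21, adjusted p = 0.381). From SDHB KO to SDHA knockdown cells it was 0.05 (SE 0.19, 95% interval -0.34 to 0.44), with overlapping groups.

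SLC1A4 (ENSG00000115902, chr2:64988477-65023865, plus strand), the relative of SLC1A5 that exchanges alanine, serine and cysteine, was too low to be tested. Its counts were 6 and 4 in parental, 3, 6 and 4 in SDHB KO, and 5, 5 and 0 in SDHA knockdown cells. The single 0, in SDHA knockdown replicate 3, allows a level of up to 3.44 CPM before TMM scaling, and a difference between the groups was not detectable at this depth.

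Both sodium-coupled glutamine carriers lie near each other on chromosome 12 and had fewer than 100 reads per sample. SLC38A1 (ENSG00000111371, chr12:46183063-46270017, minus strand) was at 34.7 and 39.8 CPM in parental cells, 23.3, 48.9 and 31.3 CPM in SDHB KO cells, and 33.8, 27.6 and 41.2 CPM in SDHA knockdown cells. Its groups overlapped, and the log2 fold changes of -0.10 (SE 0.37), -0.04 (SE 0.32) and -0.13 (SE 0.36), in the order of the comparisons above, were smaller than their errors. The 95% interval of the last ran from -0.89 to 0.62.

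SLC38A2 (ENSG00000134294, chr12:46358188-46372773, minus strand), a carrier known to rise when amino acids are scarce, was at 75.2 and 35.8 CPM in parental cells, 38.3, 60.0 and 42.1 CPM in SDHB KO cells, and 33.8, 22.4 and 30.1 CPM in SDHA knockdown cells. All SDHA knockdown samples lay below all other samples, whereas parental and SDHB KO cells overlapped. The mean was 28.8 ± 5.82 CPM (SD, n = 3) in SDHA knockdown cells, against 55.5 ± 27.8 CPM (SD, n = 2) in parental cells and 46.8 ± 11.6 CPM (SD, n = 3) in SDHB KO cells. The log2 fold change against parental cells was -0.98 (SE 0.36, 95% interval -1.72 to -0.24), and against SDHB KO cells it was -0.73 (SE 0.33, 95% interval -1.40 to -0.05). Both were below an unadjusted p of 0.05, and neither passed the adjusted threshold (adjusted p = 0.247 and 0.381) or was called in any alternative. Of all genes, 8.69% had all SDHA knockdown samples below all SDHB KO samples, and 15.5% had them below both parental samples. The parental samples differed from each other, and without parental replicate 1 the log2 fold change of SLC38A2 against parental cells was -0.34. Between SDHB KO and parental cells it was -0.25 (SE 0.35).

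SLC7A1 (ENSG00000139514, chr13:29509414-29595688, minus strand), the main carrier of arginine and lysine, was at 218 and 174 CPM in parental cells, 108, 177 and 136 CPM in SDHB KO cells, and 206, 115 and 216 CPM in SDHA knockdown cells. The groups overlapped, with the lowest values in SDHB KO replicate 1 and SDHA knockdown replicate 2. The log2 fold change was -0.48 (SE 0.27, 95% interval -1.05 to 0.09) between SDHB KO and parental cells, 0.34 (SE 0.25) from SDHB KO to SDHA knockdown cells, and -0.14 (SE 0.27) between SDHA knockdown and parental cells. No call was made for SLC7A1 in any of the alternatives.

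SLC1A3 (ENSG00000079215, chr5:36596588-36688334, plus strand), the only gene of the 9 whose product takes up aspartate and glutamate with high affinity, was close to absent from the libraries. It had 1 count in parental replicate 2, 4 counts in SDHB KO replicate 1 and 1 count in SDHA knockdown replicate 2, and 0 in the other 5 samples. The counts of 0 allow levels of up to 3.12 to 3.68 CPM before TMM scaling, and these values support no comparison between groups.

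**Figure D4:**
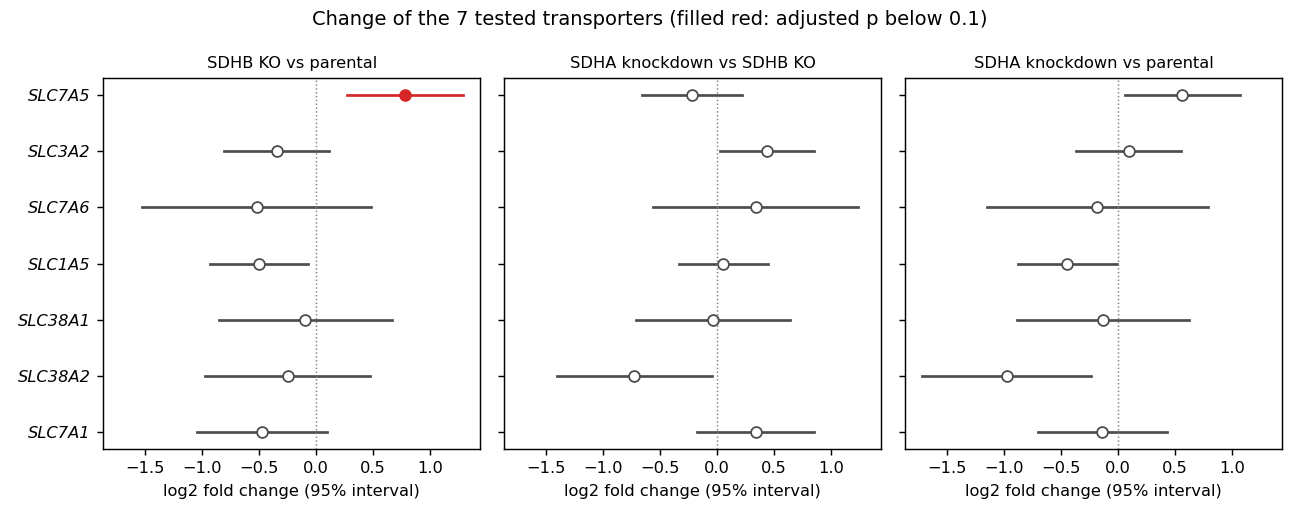
Log2 fold changes (points, horizontal axes) with 95% intervals of the 7 tested transporters in the 3 comparisons (panels); the filled red point is past an adjusted p of 0.1. SLC7A5 between SDHB KO and parental cells, at 0.78, is the filled point, and the other 6 transporters lie at -0.52 to -0.10 in that panel.

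In SDHB KO against parental cells, the groups of 3 of the 7 transporters did not overlap, SLC7A5 above and SLC3A2 and SLC1A5 below the parental samples, where 37.9% of all genes had groups that did not overlap (19.3% higher and 18.6% lower). In SDHA knockdown against parental cells there were again 3, SLC7A5 above and SLC1A5 and SLC38A2 below, against 30.7% of all genes (15.2% higher and 15.5% lower). In SDHA knockdown against SDHB KO cells SLC38A2 alone did not overlap, against 17.4% of all genes (8.7% higher and 8.69% lower). Groups of this size separate often. At an unadjusted p below 0.05, the edgeR test gave 2 transporters in SDHB KO against parental cells, 2 in SDHA knockdown against SDHB KO cells and 3 in SDHA knockdown against parental cells, where 17.5%, 12.1% and 12.3% of all genes tested lay below it in the same order. DESeq2 called 1, SLC7A5, in the first of these comparisons and 0 in the others.

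Pearson's r of log2 CPM with SLC7A5 across the 8 samples was below 0 for each of the other 6 tested transporters. It was -0.83 for SLC7A1, -0.70 for SLC1A5, -0.68 for SLC38A1, -0.47 for SLC3A2, -0.46 for SLC38A2 and -0.22 for SLC7A6. These values describe 8 samples that share their libraries and depth scaling and fall into 3 groups. SDHA knockdown replicate 2, the sample that stood apart, had the highest SLC7A5 of its group (272 CPM). It also had the lowest SLC1A5, SLC3A2, SLC7A1, SLC38A1 and SLC38A2 of that group, but not the lowest SLC7A6. The weight of this sample in the values of r was not tested. Among the 7549 other genes tested, those most like SLC7A5 were ASPHD1 (r = 0.99), DRAP1 (r = 0.98) and TMUB1 (r = 0.98).

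Of 34 other genes listed as plasma membrane amino acid transporters, 6 were tested, and 0 were called in any of the 3 comparisons. The edgeR test gave 2, 1 and 1 of them at an unadjusted p below 0.05 in the comparisons of SDHB KO with parental, SDHA knockdown with SDHB KO, and SDHA knockdown with parental cells (17.5%, 12.1% and 12.3% of all genes). Of the 28 not tested, 18 were at 0 in every sample, and the highest count was 9. SLC7A11 (xCT), another light chain of SLC3A2 that exchanges cystine for glutamate, is named here because its values had been seen. Its counts were 37 and 16 in parental, 8, 16 and 9 in SDHB KO, and 4, 16 and 12 in SDHA knockdown cells. The log2 fold change of SLC7A11 against parental cells was -1.32 (SE 0.49, adjusted p = 0.149) in SDHB KO and -1.64 (SE 0.49, adjusted p = 0.153) in SDHA knockdown cells. In the same order, SLC7A11 was at -0.72 and -1.05 without parental replicate 1 and at -1.73 and -2.06 without parental replicate 2. Between SDHB KO and parental cells SLC7A11 was called without SDHA knockdown replicate 2 (adjusted p = 0.0918). The genes of this list with the most reads were SLC38A10 and SLC43A2, and where in the cell their proteins lie was not examined. SLC38A10 had a log2 fold change of -0.60 (SE 0.25, adjusted p = 0.204) between SDHB KO and parental cells and 0.53 (SE 0.22, adjusted p = 0.344) from SDHB KO to SDHA knockdown cells, and SLC43A2 had 0.08 (SE 0.34) and -0.44 (SE 0.30).

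Of 31 genes of lysosomal amino acid transport and mTORC1 sensing, the machinery that reads leucine and arginine supply, 21 were tested and 0 called in any comparison, with 2, 1 and 0 at an unadjusted edgeR p below 0.05 (17.5%, 12.1% and 12.3% of all genes). Its genes with the most reads, LAMTOR1 (0.22, SE 0.22) and SEC13 (0.55, SE 0.23, adjusted p = 0.206), are given as log2 fold changes between SDHB KO and parental cells. Of 24 enzymes and mitochondrial carriers of aspartate, asparagine, glutamate and glutamine, 17 were tested. In the same order, 6, 3 and 2 of them were at an unadjusted edgeR p below 0.05 (17.5%, 12.1% and 12.3% of all genes). Between SDHA knockdown and SDHB KO cells 1 was called (1.51% of all genes), and between SDHB KO and parental cells 3 were called (5.54% of all genes). PSAT1, the serine synthesis enzyme that converts glutamate to α-ketoglutarate, fell by 1.42 on the log2 scale (SE 0.36, adjusted p = 0.0395), and the mitochondrial glutamate carrier SLC25A22 fell by 1.52 (SE 0.41, adjusted p = 0.0503). The mitochondrial oxoglutarate carrier SLC25A11 rose by 0.88 (SE 0.24, adjusted p = 0.0576) and fell by 1.21 (SE 0.21, adjusted p = 0.00715) from SDHB KO to SDHA knockdown cells. Each of the 3 calls against parental cells was lost without parental replicate 1, parental replicate 2 or SDHB KO replicate 1, with adjusted p from 0.103 to 0.536. Those of both mitochondrial carriers were also lost without SDHB KO replicate 3, at 0.138 for SLC25A22 and 0.169 for SLC25A11. MDH2 and GOT2, the enzymes of this list with the most reads, had log2 fold changes of -0.44 (SE 0.20) and 0.15 (SE 0.21) and were not called.

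Of 15 regulators of the amino acid response, 11 were tested. In the order of the comparisons above, 2, 3 and 1 of them were at an unadjusted edgeR p below 0.05 (17.5%, 12.1% and 12.3% of all genes). Their log2 fold changes ran from -0.64 to 1.70, from -1.51 to 1.33 and from -0.52 to 3.03 in that order. Only 1 was called, between SDHA knockdown and SDHB KO cells (1.51% of all genes). The RNA of ATF4, the factor that activates several transporter genes, fell by 0.78 on the log2 scale from SDHB KO to SDHA knockdown cells (SE 0.20, adjusted p = 0.0750). The activity of the ATF4 protein and a link to the transporter levels were not tested. ATF4 RNA was at 160 and 199 CPM in parental cells, 315, 236 and 326 CPM in SDHB KO cells, and 156, 188 and 164 CPM in SDHA knockdown cells. All SDHB KO samples were thus above all others. Of all genes, 19.3% had all SDHB KO samples above both parental samples, and 8.69% had them above all SDHA knockdown samples. The share of genes with both was not computed. Between SDHB KO and parental cells the log2 fold change of ATF4 was 0.70 (SE 0.23, adjusted p = 0.103). It passed the threshold there with DESeq2 (adjusted p = 0.0553), in a fit of only these 2 groups (0.0489), and without SDHB KO replicate 2 (0.0701) or SDHA knockdown replicate 2 (0.0287). The call of ATF4 from SDHB KO to SDHA knockdown cells was lost without parental replicate 1 (adjusted p = 0.133), parental replicate 2 (0.137), SDHB KO replicate 1 (0.258), SDHB KO replicate 3 (0.303), SDHA knockdown replicate 1 (0.234) or SDHA knockdown replicate 3 (0.261), and in a fit of only the 2 groups compared (0.131). PPP1R15A, the other regulator with the most reads, had log2 fold changes of -0.09 (SE 0.24) and 0.11 (SE 0.21) between SDHB KO and parental and from SDHB KO to SDHA knockdown cells.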

How the data were processed

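The authors trimmed the QuantSeq reads (Trimmomatic), discarded those of ribosomal and mitochondrial RNA (Sortmerna), and used STAR 2.5.2b for alignment to GRCh38 and counting per gene, per the submitters' processing notes and the study's methods. They deposited the raw counts, which are used here. They also deposited a normalized signal, which is each raw count over a factor for its sample. There, replicates 1 and 3 of SDHB KO hold the raw values of each other (tolerance 0.001), and this signal served only for that check. Unmapped, multimapping, unassigned and ambiguous reads (18.82% to 28.61% of each file) were left out.

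Counts of genes with a BaseMean above 5 (7550 of 58051) were TMM-scaled and tested by quasi-likelihood in edgeR 4.0.16 (R 4.3.3), with all 8 samples in 3 groups and 5 residual degrees of freedom. The biological coefficient of variation was 21.5%. P-values were adjusted by Benjamini-Hochberg over all tested genes within each comparison, and an adjusted p below 0.1 was a call, the threshold of the study's methods. The standard error is the size of the log2 fold change divided by the square root of F. CPM are scaled by TMM, and log2 CPM for correlations used a prior count of 2. At a median of 853763.5 reads on genes per sample, counting error limits genes with few reads. Genes were named by rule: the 9 transporters, SDHA and SDHB, called members and the 2 of highest count in each list, and the 3 genes most like SLC7A5. SLC7A11 and MSN were named after their values were seen. The members and lists were chosen with earlier results of these data known. Positions came from GENCODE release 44.

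The alternatives were DESeq2 1.42.0, edgeR with DESeq2 size factors, a filter by filterByExpr and no filter, a stricter threshold of 0.05, fits of 2 groups, each sample left out, the replicate number as a block, and an offset for the GC content of the last 300 bases (lowess span 0.3 per sample). Scripts were tested on simulated data. Proteins and metabolites were not analysed here.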

Additional observations from a re-analysis of the deposited data

How the results depend on the processing

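Of the log2 fold changes of the 7 tested transporters, 157 of 163 values under other settings and 149 of 168 values with 1 sample left out kept their direction and their side of the threshold. Members called between SDHB KO and parental cells numbered 1, and 0 at an adjusted p below 0.05 and 0 to 2 with a sample left out. With the GC offset alone the 1 member called there was SLC1A5, lower in SDHB KO cells, instead of SLC7A5. Members called numbered 0 between SDHA knockdown and SDHB KO cells, and 0 to 1 with a sample left out, and between SDHA knockdown and parental cells 0 throughout. Deviations from group means correlated at -0.07 on average over 7 pairs of samples with the same replicate number (-0.27 to 0.093). Over 14 pairs with different numbers the average was 0.035 (-0.145 to 0.269). These pairs share samples, and the deviations of both parental samples mirror each other. The numbers are those of the raw counts, and replicates 1 and 3 of SDHB KO are swapped in the normalized signal. Whether the replicate numbers pair the samples was not tested. With the replicate block, alone or with the GC offset, 0 members were called between SDHB KO and parental cells, and the log2 fold change of SLC7A5 was 0.85 (adjusted p = 0.149) and 0.71 (adjusted p = 0.161). The block also lost the calls of SLC25A22 (adjusted p = 0.121) and SLC25A11 (0.125) there and of ATF4 between SDHA knockdown and SDHB KO cells (0.188), and with the GC offset as well those of PSAT1 (0.113), SLC25A11 (0.155) and ATF4 (0.143). Other amino acid transporters called between SDHB KO and parental cells numbered 0, and 1 (SLC7A11) with only the 2 groups compared, and 0 to 1 with a sample left out. With no filter on low counts they numbered 1 (SLC7A11) between SDHA knockdown and parental cells. Signs turned for estimates of 13 genes, and no estimate that turned was past the threshold. With the GC offset, SLC38A1 was 0.0418 and SLC43A2 -0.0435 between SDHB KO and parental cells, and with the block as well SLC43A2 was -0.0621 there, while SLC3A2 was -0.0228 and PPP1R15A -0.0027 between SDHA knockdown and parental cells. With 1 sample left out, between SDHB KO and parental cells SLC38A1 ranged from -0.43 to 0.11, SLC38A2 from -0.68 to 0.38, SLC43A2 from -0.20 to 0.26 and PPP1R15A from -0.29 to 0.14. Between SDHA knockdown and SDHB KO cells SLC1A5 ranged from -0.0591 to 0.19, SLC38A1 from -0.24 to 0.30, LAMTOR1 from -0.0313 to 0.30, SEC13 from -0.23 to 0.0221, MDH2 from -0.0522 to 0.21, GOT2 from -0.0817 to 0.15, and PPP1R15A from -0.0051 to 0.21. Between SDHA knockdown and parental cells SLC3A2 ranged from -0.0822 to 0.23, SLC7A1 from -0.30 to 0.10, SLC7A6 from -0.44 to 0.0223, SLC38A1 from -0.29 to 0.01, ATF4 from -0.24 to 0.076 and PPP1R15A from -0.18 to 0.26. Apart from the fits with fewer samples or a stricter threshold, the cause of these changes was not tested. DESeq2 gave no adjusted p for some genes with few reads, which are left out of these counts, SLC7A6, SLC38A1, SLC38A2, PSAT1, SLC25A22 and SLC7A11 among them. The GC content of the 3′ end correlated with the log2 fold changes of all genes at a Spearman's rho of 0.134 between SDHB KO and parental cells and -0.003 after the offset. With 598 to 885 reads per sample SLC1A5 is the best measured of the 9 genes, while SLC1A3 and SLC1A4, with at most 6, cannot show a change.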
